A study of Ictidomys tridecemlineatus with 15 samples.

Results

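The genes described here encode the proteins that cut and polyadenylate nascent transcripts and that take RNA polymerase II off its template. They were chosen by name from the transcription units of a GRO-seq count table: every unit that carries 1 of 21 listed symbols, or a symbol of the Cpsf, Cstf or Ints families. The rule found 30 of 6324 units. Of these, 17 carry a single gene name and are the units that were counted and compared, against 4705 single-gene units in the whole table. The other 13 were merged with neighbouring genes that overlap them, so that their reads cannot be assigned to 1 gene, and they are given apart. Of the listed symbols, 19 have a unit. Cpsf1 and Cstf2 have none of that name, and neither do Cpsf4, Cstf2t, Ints1, Ints10, Ints12, Ints13 and Ints15, so these genes are not analysed here.

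GRO-seq (global run-on sequencing) lets polymerases that are already engaged on the gene extend their transcripts in isolated nuclei in the presence of a labelled nucleotide, so that it reads how many polymerases sit on a gene body rather than how much mRNA has accumulated. The livers came from female 13-lined ground squirrels of a breeding colony that were housed in the laboratory, 1 library per animal, frozen at collection, and the run-on was done at 1 temperature for every state. SA animals were summer active, before the onset of hibernation. IBA animals were interbout aroused, briefly rewarmed between torpor bouts. Ent animals were entering torpor, ET animals were early and LT animals late in a torpor bout. SA, IBA, Ent and ET have 3 libraries each. LT has 2, since its replicate 2 has no column in the table. The study removed an LT library that it judged to be of relatively poor quality and an outlier. Torpid animals are cold, so ET and LT (5 libraries) are called the cold states below and SA and IBA (6 libraries) the warm states. Total counts ranged from 3713883 to 8884763 per library, and the smallest count of any of the 17 single-gene members was 74. Levels are CPM, that is counts scaled to library size by TMM and expressed on the usual CPM scale. They are therefore relative to the other nascent reads of a library, not amounts per nucleus.

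At the end of a gene, the cleavage and polyadenylation specificity factor (CPSF) recognises the poly(A) signal and cuts the RNA, the cleavage stimulation factor (CstF) binds the sequence downstream of the cut, and the cleavage factors CFIm and CFIIm help choose the site and couple it to the polymerase. A poly(A) polymerase then adds the tail, and the exonuclease Xrn2 degrades the RNA that is still attached to the polymerase until transcription stops. Integrator is a separate complex with its own endonuclease. It cuts small nuclear RNAs and ends the transcription of promoter-proximal polymerases, and it carries a phosphatase module.

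In the cold, many genes of the 3′ end machinery took a larger share of the nascent reads, and some Integrator genes took a smaller one. Of the 17 single-gene members, 8 rose in the cold states relative to the warm states and 2 fell. Cstf3 rose the most, 2.43-fold, followed by Pcf11 and Cpsf6, both 1.71-fold, and by Cpsf3, Cpsf7, Fip1l1, Papolg and Scaf8, with folds of 1.48 to 1.60. All of these 8 are among the 12 members of the cleavage, polyadenylation and termination machinery. The 2 that fell, Ints6 and a second Ints6-type gene, are among the 5 Integrator members. Among all single-gene units, 18.3% rose and 18.7% fell in the same comparison, which used edgeR's quasi-likelihood test with p-values adjusted over all units and a threshold of 0.001. The groups did not overlap in any library for the same numbers of members, 8 with every cold library above every warm one, against 20.3% of all single-gene units, and 2 with every cold library below, against 20.2%. The median log2 fold change, cold minus warm, was 0.63 over the 12 3′ end and termination members and -0.36 over the 5 Integrator members, beside -0.07 over all single-gene units.

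**Figure D1:**
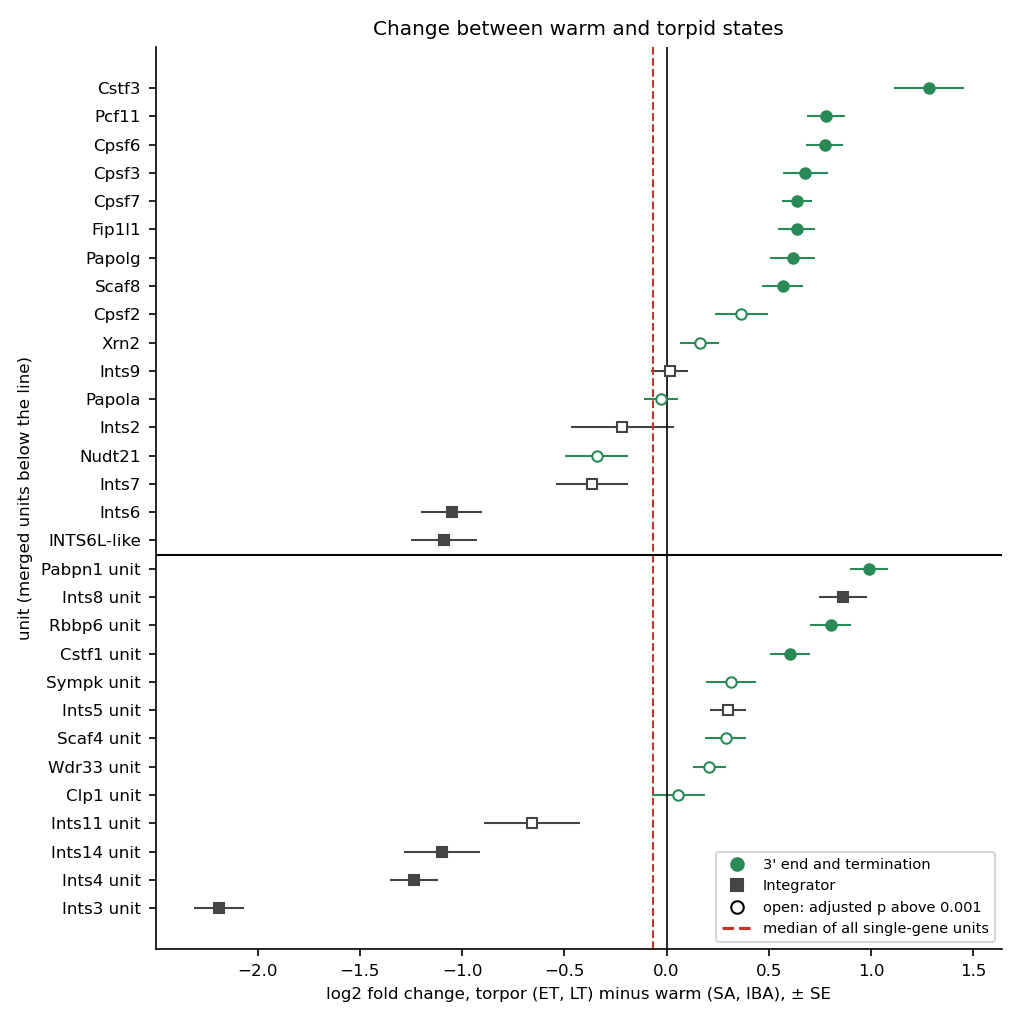
Log2 fold change between the cold (ET, LT) and warm (SA, IBA) states (x axis) for the 17 single-gene units and, below the line, the 13 merged units (y axis), with standard errors from the edgeR fit. Circles are 3′ end and termination genes, squares are Integrator genes, filled symbols have an adjusted p at or under 0.001, and the dashed line is the median of all single-gene units. Cstf3 is at 1.28 and the Ints3 unit at -2.19.

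The state and the season of collection are tied together in these animals. The ET libraries are the whole of the second season, the LT libraries come from the first, and all IBA libraries come from the third, so that for ET season and state cannot be told apart. With season as a covariate and LT alone as the cold state, 1 of the 8 rises (Cstf3, log2 fold change 1.66, adjusted p = 0.00094) and 0 of the 2 falls stayed past the threshold, where 4.17% of all single-gene units were called higher and 4.99% lower. All 10 kept their direction, the rises at 0.52 to 1.66 and the falls at -1.12 and -1.04. Within the first season, where the 2 LT libraries can be set against a single SA library and no test was made, the 8 lay 0.47 to 1.62 higher and the 2 lay 0.62 to 1.01 lower on the log2 scale (-0.62 and -1.01 for LT minus SA).

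Within CPSF, Fip1l1, which binds U-rich RNA and contacts the poly(A) polymerase, stood on chromosome 14, 30091353 to 30171127, minus strand, of the HiC_Itri_2 assembly. Its level was 128, 141 and 136 CPM in SA, 155, 142 and 159 in IBA, 187, 182 and 218 in Ent, 209, 249.8 and 207 in ET, and 240.5 and 207 in LT. Every Ent library already lay above every warm library. The difference between cold and warm was 0.64 on the log2 scale (SE 0.09, adjusted p = 5.04e-05). Cpsf3, the endonuclease that makes the cut (chromosome 12, 51059867 to 51095116, plus strand), ranged from 50.9 to 75.7 CPM in the warm libraries and from 88.6 to 118 in the cold ones, a difference of 0.68 (SE 0.11, adjusted p = 0.000142). Its Ent libraries, at 72.7 to 85.8 CPM, overlapped the warm range. Cpsf2, the partner of Cpsf3 that resembles it but does not cut, had overlapping ranges of 74.3 to 99.6 CPM in the warm and 87.9 to 135 in the cold states, and its difference of 0.37 (SE 0.13) did not pass, with an adjusted p of 0.026.

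Cstf3, the scaffold subunit of CstF (chromosome 3, 31630265 to 31707709, plus strand), had the largest rise among the single-gene members. It was at 99.8, 159 and 80.1 CPM in SA, 137, 112 and 135 in IBA, 142, 172 and 215 in Ent, 263, 306 and 257 in ET, and 345 and 274 in LT. The SA libraries spread widely and reached into the range of Ent, while the lowest cold library lay well above the highest warm one. The log2 difference was 1.28 (SE 0.17, adjusted p = 3.23e-05).

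CFIm pairs Nudt21, which binds UGUA elements upstream of the cleavage site, with a larger subunit, Cpsf6 or Cpsf7. Both large subunits rose and Nudt21 did not. Cpsf6 (chromosome 4, 47015201 to 47064581, minus strand) was at 152, 153 and 153 CPM in SA, 146, 145 and 151 in IBA, 179, 206 and 224 in Ent, 261, 309.9 and 250.2 in ET, and 254 and 226 in LT. The warm libraries were nearly alike, every Ent library lay above them, and every cold library lay above those of Ent. Its log2 difference was 0.77 (SE 0.09, adjusted p = 9.16e-06). Cpsf7 (chromosome 3, 11515937 to 11541543, plus strand) had the same order of states with a smaller spread: 86.0, 82.8 and 78.1 CPM in SA, 79.9, 85.9 and 76.0 in IBA, 107, 105 and 109 in Ent, 135, 136 and 132 in ET, and 121 and 117 in LT. Its difference was 0.64 (SE 0.07, adjusted p = 1.11e-05).

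Nudt21 was read at a lower depth than its partners, with 77 to 200 counts per library. It was at 18.6, 31.1 and 23.4 CPM in SA, 23.9, 26.8 and 31.3 in IBA, 26.4, 28.1 and 29.2 in Ent, 27.4, 27.1 and 25.2 in ET, and 13.2 and 18.0 in LT. The 2 LT libraries were the lowest of all 14, while ET lay within the range of IBA. Its cold-minus-warm value was -0.34 (SE 0.15, adjusted p = 0.064). Taken within each library, which removes any effect of scaling, the log2 ratio of Cpsf6 to Nudt21 was 2.56 ± 0.29 in the warm libraries (SD, n = 6) and 3.60 ± 0.41 in the cold ones (SD, n = 5). The ratio of Cpsf7 to Nudt21 was 1.68 ± 0.32 and 2.59 ± 0.38, and that of Cpsf6 to Cpsf7 was 0.88 ± 0.09 and 1.01 ± 0.11. The ranges of warm and cold libraries were apart for both ratios to Nudt21 and overlapped for Cpsf6 to Cpsf7. The pairs were chosen after the values were seen, and no test was made on them.

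**Figure D2:**
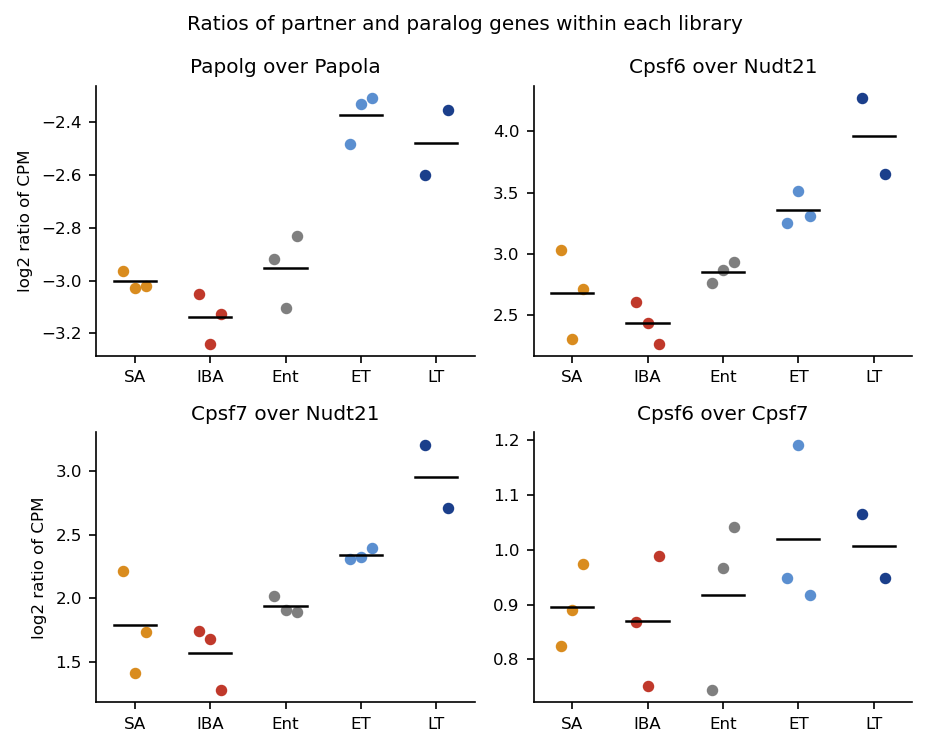
Log2 ratio of the CPM of 2 genes within each library (y axis) in the 5 states (x axis), with a bar at the mean of the state. Papolg over Papola, Cpsf6 over Nudt21 and Cpsf7 over Nudt21 are higher in every ET and LT library than in every SA and IBA library, and Cpsf6 over Cpsf7 overlaps.

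Pcf11, the CFIIm subunit that binds the tail of RNA polymerase II and takes part both in cleavage and in termination, had the highest level per length of the 17, 10.8 CPM per kb over all 14 libraries, beside a median of 2.23 over the members and 2.16 over all single-gene units. The unit lies on chromosome 3, 69708833 to 69740959, plus strand. Pcf11 was at 248, 245 and 258 CPM in SA, 295, 267 and 278 in IBA, 324, 316 and 354 in Ent, 512, 513 and 390.2 in ET, and 457 and 416 in LT. The warm, Ent and cold libraries formed 3 ranges, in that order, that did not touch. The log2 difference was 0.78 (SE 0.09, adjusted p = 1.21e-05).

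Of the 2 poly(A) polymerases, Papolg rose and its paralog Papola, the main nuclear enzyme, showed no detectable change. Papolg (chromosome 12, 22244514 to 22285583, minus strand) ranged from 41.6 to 54.0 CPM in the warm and from 63.9 to 82.7 in the cold libraries, a log2 difference of 0.62 (SE 0.11, adjusted p = 0.000308). Papola ranged from 349 to 448 CPM in the warm and from 357 to 415 in the cold libraries, with a difference of -0.03 (SE 0.08, adjusted p = 0.78). The log2 ratio of Papolg to Papola was -3.07 ± 0.10 in the warm (SD, n = 6) and -2.41 ± 0.12 in the cold libraries (SD, n = 5). Papola nevertheless gave more nascent reads per length than Papolg, at 5.35 against 1.39 CPM per kb over all libraries.

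Among the factors that act on the polymerase itself, Scaf8, which binds its tail and keeps it from ending at early poly(A) sites, has the longest unit, 230083 nt (chromosome 8, 139807726 to 140037808, plus strand). It ranged from 432 to 544 CPM in the warm and from 620.5 to 840.2 in the cold libraries, a log2 difference of 0.57 (SE 0.10, adjusted p = 0.000274). Xrn2, the exonuclease of the torpedo model of termination, ranged from 115 to 156 CPM in the warm and from 135 to 155 in the cold libraries. Its difference of 0.16 (SE 0.09) did not pass, with an adjusted p of 0.15.

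**Figure D3:**
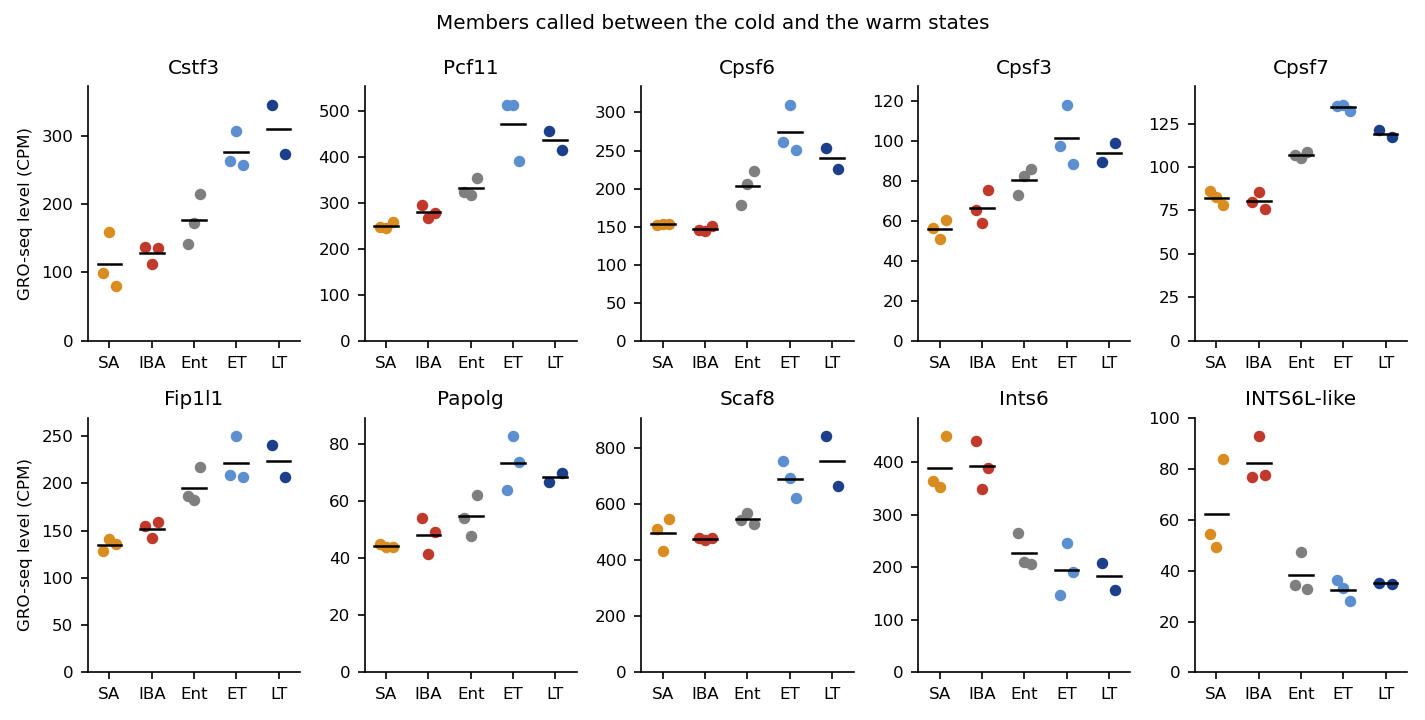
GRO-seq level in CPM (y axis, from 0) of the 10 members with an adjusted p at or under 0.001 between cold and warm states, in each library of the 5 states (x axis), with a bar at the mean of the state. Cstf3 lies at 80.1 to 159 in SA and IBA and at 257 to 345 in ET and LT, and Ints6 at 349 to 449.6 and at 147 to 246.

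In Integrator, Ints6 and the unit named INTS6L_like_gene8579, which by its name resembles the Ints6 paralog Ints6l, both fell. Ints6 belongs to the module that brings a phosphatase to the complex. Only uniquely aligned reads were counted, so that any read shared by the 2 genes was counted for neither. Ints6 (chromosome 4, 160701637 to 160798137, minus strand) was at 365, 353 and 449.6 CPM in SA, 442, 349 and 389 in IBA, 265, 211 and 207 in Ent, 147, 246 and 192 in ET, and 208 and 158 in LT. INTS6L-like (chromosome 10, 104226285 to 104292427, plus strand) was at 54.2, 49.2 and 83.9 CPM in SA, 77.0, 92.8 and 77.6 in IBA, 34.3, 47.3 and 32.8 in Ent, 36.2, 33.2 and 28.2 in ET, and 35.2 and 34.9 in LT. For both genes the Ent libraries lay below every warm library and overlapped the cold ones. The log2 differences between cold and warm were -1.05 (SE 0.15, adjusted p = 5.20e-05) for Ints6 and -1.09 (SE 0.16, adjusted p = 7.59e-05) for INTS6L-like.

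The other 3 single-gene Integrator units did not pass. Ints9, which forms the cleavage module of the complex with the endonuclease Ints11, had the smallest absolute cold-minus-warm value of the 17. Its levels were 77.0 to 94.7 CPM in the warm and 74.1 to 92.1 in the cold libraries, a difference of 0.02 (SE 0.09, adjusted p = 0.89). Ints7, a subunit of the backbone, was at 49.6 ± 9.45 CPM in SA and 74.6 ± 14.7 in IBA, and at 47.1 ± 15.0 in ET (SD, n = 3 each), with a cold-minus-warm value of -0.36 (SE 0.18, adjusted p = 0.088). Ints2, another backbone subunit, had the lowest level per length of the 17, 0.394 CPM per kb, and its cold libraries spread from 10.9 to 37.0 CPM around warm ones of 14.5 to 31.1.

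Tested over all 5 states at once, 7 of the 17 passed, Cpsf6, Cpsf7, Pcf11, INTS6L-like, Cstf3, Ints6 and Fip1l1 with adjusted p-values from 0.000129 to 0.000708, beside 26.4% of all single-gene units. The count depended on single libraries: it was 4 without SA replicate 1 or ET replicate 2, and 3 without any 1 of the IBA libraries, ET replicate 3 or either LT library. DESeq2 called 10 of the 17 over the 5 states, and 2417 of all single-gene units. Papolg, Scaf8 and Cpsf3, which rose in the cold-minus-warm comparison, did not pass in edgeR's test of the 5 states, with adjusted p-values of 0.0036, 0.00398 and 0.00159. These 3 were the calls that depended on single libraries in the cold-minus-warm comparison. Papolg lost its call without IBA replicate 2 or 3 or LT replicate 1 or 3 (adjusted p from 0.00105 to 0.00196), Scaf8 without IBA replicate 2 or 3 or LT replicate 1 (0.00101 to 0.00259), and Cpsf3 without LT replicate 3 (0.00117).

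No single step between successive states took a member past the threshold. From SA to IBA, 0 of the 17 members passed, beside 0.0213% of all single-gene units, with 2 members at an unadjusted p at or under 0.05 (23.4% of all) and 0 called by DESeq2 (3.72%). From IBA to Ent, 0 members passed beside 0.0425%, with 5 at the unadjusted 0.05 (33.4%) and 2 called by DESeq2 (7%). From Ent to ET, 0 passed beside 2.3%, with 7 at the unadjusted 0.05 (41.1%) and 1 called by DESeq2 (15.4%). From ET to LT, 0 passed beside 0% of all units, with 2 at the unadjusted 0.05 (9.27%) and 0 called by DESeq2 (0.702%). At an adjusted p of 0.05 the members that passed were 4 from IBA to Ent (16.7% of all single-gene units), 4 from Ent to ET (29.2%), 0 from SA to IBA (5.57%) and 0 from ET to LT (0.34%).

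Both Integrator genes and both large CFIm subunits were among those that passed the looser threshold from IBA to Ent. INTS6L-like differed by -1.11 on the log2 scale (adjusted p = 0.00624), Ints6 by -0.79 (0.0179), Cpsf6 by 0.46 (0.0209) and Cpsf7 by 0.41 (0.0175). From Ent to ET, the 4 were Pcf11 at 0.51 (adjusted p = 0.00923), Cpsf6 at 0.43 (0.0164), Papolg at 0.42 (0.046) and Cpsf7 at 0.33 (0.0254). The mean of the Ent libraries had covered between 30.9% (Scaf8) and 85.2% (INTS6L-like) of the distance from the warm to the cold mean on the log2 scale, with a median of 57.4% over the 10 called members. In 6 of the 10, Fip1l1, Cpsf6, Cpsf7, Pcf11, Ints6 and INTS6L-like, no Ent library overlapped a warm one, and in 3 of these, Cpsf6, Cpsf7 and Pcf11, the Ent libraries lay wholly between the warm and the cold ones. These Ent figures were not computed over all called units, so whether they are particular to the members was not tested. The study assigned most of its differentially transcribed genes to patterns with an intermediate level at Ent.

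**Figure D4:**
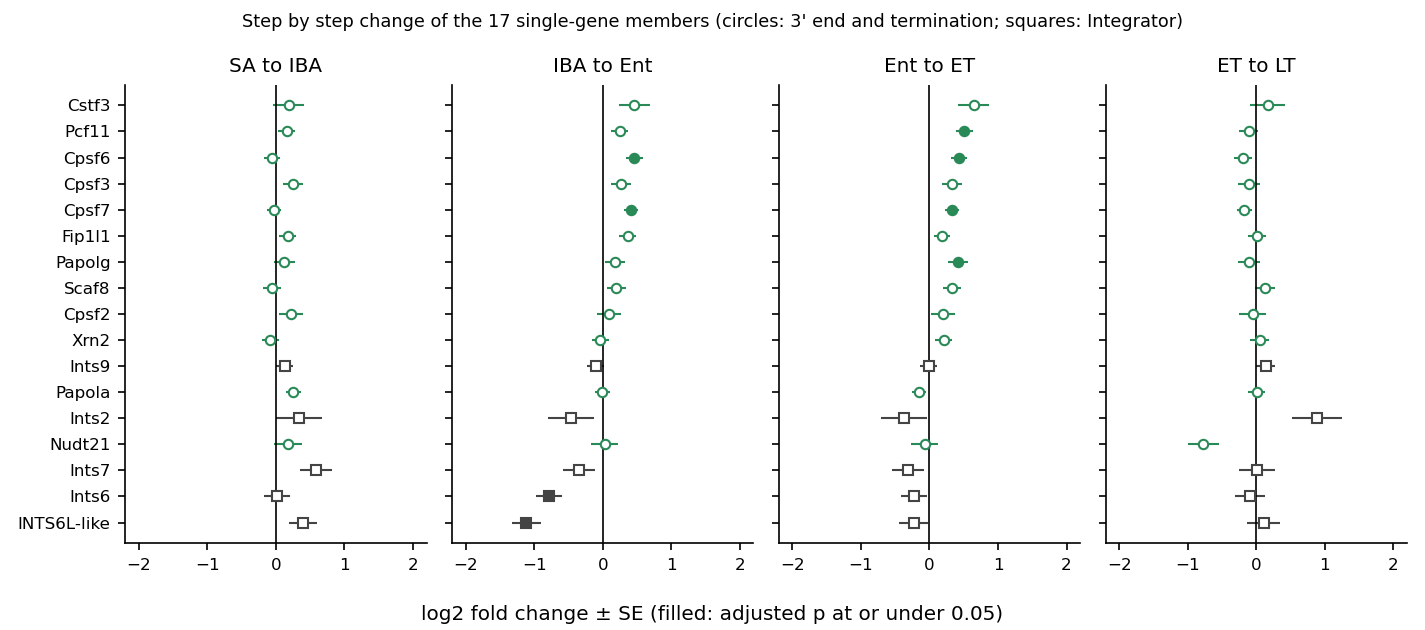
Log2 fold change with its standard error (x axis) of each of the 17 single-gene units (y axis) for the 4 successive steps, circles for 3′ end and termination genes and squares for Integrator genes, filled where the adjusted p is at or under 0.05. The filled symbols lie in the steps from IBA to Ent and from Ent to ET, 4 in each.

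Between the extremes of a torpor bout, IBA and LT, 1 of the 17 passed, Cpsf6 with a log2 difference of 0.71 (SE 0.13, adjusted p = 0.000811), beside 17.6% of all single-gene units. The call was lost without any 1 of SA replicate 1, IBA replicates 1 to 3, Ent replicate 2, ET replicate 3 and LT replicates 1 and 3, each of which left 0 members called, and DESeq2 called 8, beside 32.2% of all single-gene units. At an adjusted p of 0.05, 8 members were higher in LT (24.1% of all single-gene units) and 3 were lower (26.6%). The 3 lower ones were INTS6L-like at -1.23 (adjusted p = 0.00126), Ints6 at -1.10 (0.00148) and Nudt21 at -0.81 (0.0112). The comparisons share libraries with each other, and their SA, IBA, ET and LT libraries also enter the cold-minus-warm comparison. They are not independent of it or of each other.

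Of the 13 merged units, 4 rose between warm and cold, beside 19.6% of all merged units, and 3 fell, beside 14.5%. The Pabpn1 unit, named for the nuclear poly(A) binding protein that sets tail length and merged with the apoptosis regulator Bcl2l2, ranged from 174 to 229 CPM in the warm and from 355 to 445 in the cold libraries, a difference of 0.99 (SE 0.09, adjusted p = 2.18e-06). The unit lies on chromosome 5, 35325816 to 35363792, plus strand. The unit of Rbbp6, a ubiquitin ligase that takes part in cleavage, is merged with Tnrc6a and a second Rbbp6-like gene and rose by 0.80. The unit of the CstF subunit gene Cstf1, merged with Fam210b and 3 unnamed gene models, rose by 0.60. Among the 3′ end genes, the merged units that did not pass were those of the scaffold Sympk, of Wdr33, which reads the poly(A) signal, of the Scaf8 paralog Scaf4 and of the CFIIm kinase Clp1, at 0.32, 0.21, 0.29 and 0.06, with adjusted p-values of 0.0377, 0.0357, 0.0228 and 0.71.

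The merged Integrator units moved in both directions. The Ints3 unit (chromosome 11, 24481634 to 24528972, plus strand), which also holds the fatty acid transporter gene Slc27a3, showed the largest change of all 30, from 136 to 169.7 CPM in the warm libraries through 68.0 to 96.1 in Ent to 26.4 to 37.4 in the cold ones, a log2 difference of -2.19 (SE 0.12, adjusted p = 1.65e-07). It was 1 of 2 units of the 30 that passed from Ent to ET, at -1.36 (adjusted p = 0.000277). The other was the unit of Ints4, the scaffold of the cleavage module, merged with Kctd14, with -1.08 in that step (adjusted p = 0.000734) and -1.24 between warm and cold. The Ints14 unit fell by 1.10 and the unit of Ints8, which holds the phosphatase in the complex and is merged only with an unnamed gene model, rose by 0.86. The Ints11 unit, which shares its reads with Acap3 and Dvl1, was at -0.66 (adjusted p = 0.026), and the Ints5 unit, which shares them with Ganab and B3gat3, at 0.30 (adjusted p = 0.00899). How much of each value comes from the named gene cannot be told from the table.

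**Figure D5:**
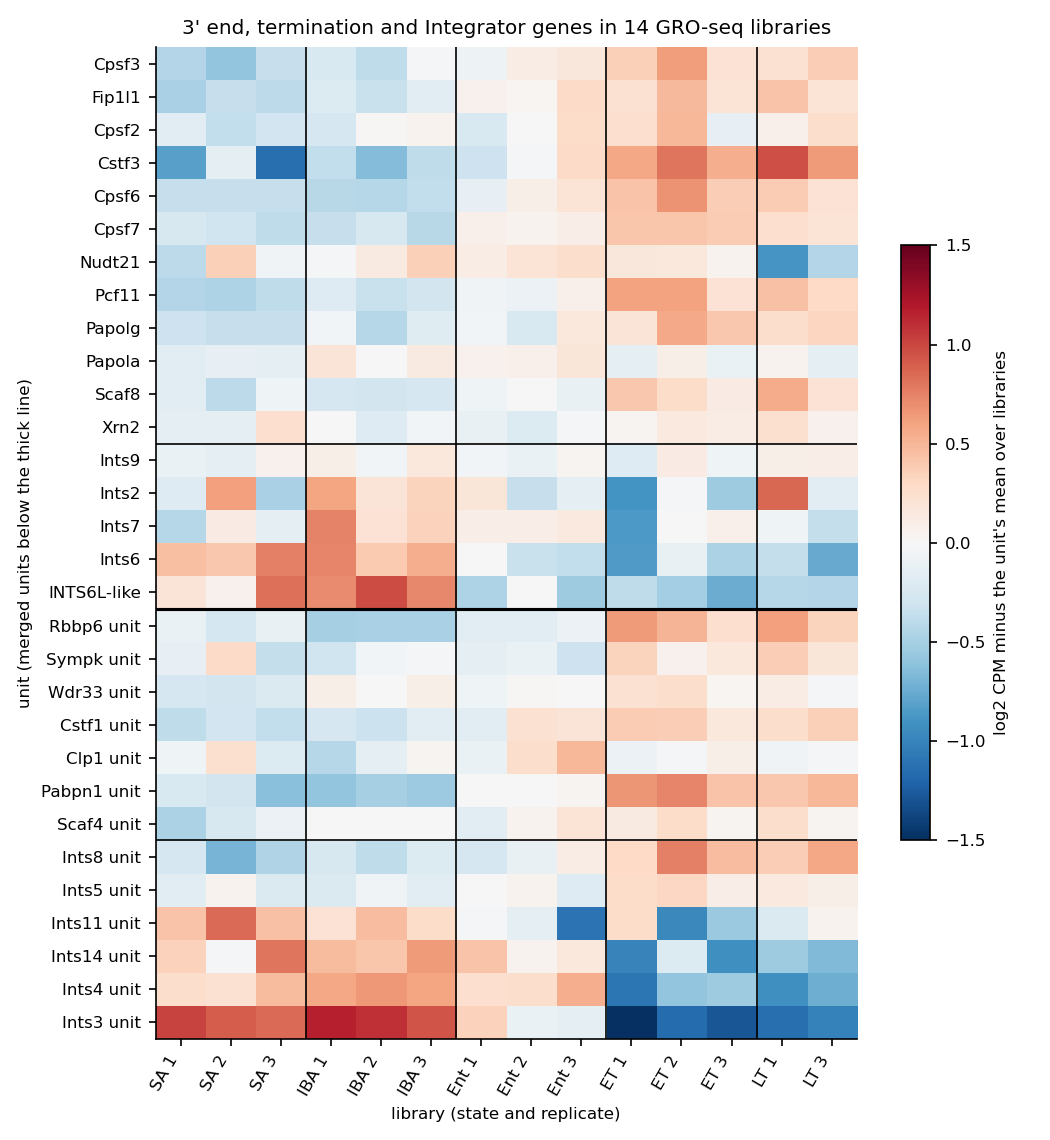
Log2 CPM of each unit minus its own mean over the 14 libraries (colour) for the 17 single-gene units and, below the thick line, the 13 merged units (rows), in the libraries ordered by state (columns). Thin horizontal lines separate 3′ end and termination genes from Integrator genes. Most rows above the thin lines turn from blue in SA and IBA to red in ET and LT, Nudt21 is lowest in the 2 LT libraries, and the Ints3 unit turns from red to blue.

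Reads of polymerases that run past the end of a gene can fall on the next gene on the same strand, so the units upstream of each member were looked up. Of the 17, 2 had a same-strand unit ending within 20 kb upstream. Asap2 ends 12497 nt before Cpsf3 and differed by 0.02 between warm and cold (adjusted p = 0.92), and Med13 ends 2788 nt before Ints2 and differed by -0.16 (adjusted p = 0.12). For the other 9 called members the nearest such unit lay farther off, from 54789 nt before Pcf11 to 4778350 nt before INTS6L-like. Genes without a unit in the table were not seen by this search. Distances run between unit boundaries, which leave out the first 500 nt of each gene. The authors also extended the ends of many genes to cover transcription seen in any state. Reads past the annotated end of a member can therefore count in its own unit. Genes that overlapped after this extension were merged. A member reached by the called transcription of an upstream gene would thus not be among the 17. The count of 2 therefore cannot show how common such reads are. The study reported an excess of extended genes only in its pattern of genes higher in the cold. Which members were extended was not looked up, and the part of reads past the annotated end in the rises was not tested. A unit on the opposite strand lay within 20 kb upstream of 3 members: Ogfod1 beside Nudt21, at 1181 nt, Hmbox1 beside Ints9, at 1204 nt, and Sdhaf2 beside Cpsf7, at 1729 nt. Sdhaf2, a mitochondrial assembly factor, differed by 0.44 (adjusted p = 0.00197), beside 0.64 for Cpsf7. All of these opposite-strand units are transcribed away from the member, so reads past their ends do not fall on it. Opposite-strand units downstream of the members, which are transcribed towards them, were not looked up. Whether the counting used the strand of the reads is not given in the sources used here.

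Related genes were counted from lists made by function. Of 7 single-gene units among PP1-PNUTS and other termination factors, 5 rose and 0 fell, with a median log2 difference of 0.59. Among all single-gene units, 18.3% rose and 18.7% fell between warm and cold. Ttf2, a termination factor that releases polymerase II, rose from 8.99 to 17.1 CPM in the warm to 30.2 to 41.3 in the cold libraries, by 1.43 (SE 0.16, adjusted p = 6.51e-06). Tox4, a subunit of the PNUTS phosphatase complex, rose by 0.92, and its phosphatase subunit gene Ppp1cc by 0.62.

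The nuclear exosome degrades RNA from its 3′ end. Of its 5 single-gene units, 4 rose (18.3% of all single-gene units) and 0 fell (18.7%), with a median of 1.13. Exosc10, its nuclear exonuclease, ranged from 40.4 to 52.0 CPM in the warm and from 127 to 160.2 in the cold libraries, a difference of 1.65 (SE 0.10, adjusted p = 1.90e-07), larger than that of any single-gene member. Exosc9 rose by 1.52 and Mphosph6 by 1.13. Among 9 units of genes that shorten or extend poly(A) tails, 1 rose, the deadenylase gene Cnot7 by 1.37, and 1 fell, the noncanonical poly(A) polymerase gene Papd5, at -0.57, with a median of -0.03. These counts do not exceed the shares of all single-gene units. Of 3 units for histone mRNA 3′ ends and the U1 snRNP, which guards against early cleavage, Slbp rose by 1.36 and Snrpc fell by 0.91.

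Hepatocyte markers were read at high levels in every library, and most of them moved with the states. Of 8 hepatocyte marker units, 5 fell and 0 rose between warm and cold, beside 18.7% and 18.3% of all single-gene units. Apob, Cps1 and Ass1 did not pass, at -0.23, -2.12 and 0.25. The summed level of the 8 was 13072 to 24604 CPM in SA, 10479 to 14542 in IBA, 8073 to 9810.4 in Ent, 4067 to 8409.7 in ET and 5151 to 7743 in LT. Of the 3 sinusoidal endothelium markers with a unit, 1 fell (Kdr), the 1 cholangiocyte marker with a unit, Sox9, fell, and the 1 stellate marker, Rgs5, did not pass. No leukocyte and no erythroid marker had a single-gene unit, and 9 of 10 leukocyte and 4 of 4 erythroid markers had none at all. In bulk liver, fewer cells of a type and less RNA per cell cannot be told apart, and the part of these shifts in the values above was not tested. CPM is relative to the other reads of a library, so a fall in such highly read genes and a rise elsewhere can be tied. TMM scaling is meant to lessen this. Its factors were 0.93 to 0.98 in SA and IBA, and 1.01 to 1.07 in ET and LT. With libraries scaled to their uniquely mapped reads instead, the median of all single-gene units moved from -0.07 to 0.16. That of the members moved from 0.37 to 0.59. Such a change of scaling shifts all units by nearly the same amount. The distance between the medians, 0.43 under both scalings, was therefore nearly fixed in advance. Under that scaling the same numbers of members were called, 8 higher and 2 lower, against 25.6% and 12.8% of all single-gene units, while the uncalled values of Papola (0.20) and Ints2 (0.01) changed sign.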

How the data were processed

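The table deposited by the authors holds raw counts for each transcription unit. The authors trimmed the reads with cutadapt to at least 32 nt, mapped them to HiC_Itri_2 with BWA, extended gene ends with fstitch segments, merged overlapping genes, removed the first 500 nt and counted uniquely aligned reads with featureCounts. Here, the counts of all 6324 units in 14 libraries were scaled by TMM and fitted in edgeR 4.0.16 (R 4.3.3) by quasi-likelihood with 1 term per state. P-values were adjusted by Benjamini-Hochberg over all units, with the study's threshold of 0.001. Replicates are separate animals. The fit was tested on simulated counts. Members and lists were chosen with earlier results of these data known. Every single-gene member is named; the values of every library are given for those past the threshold among the 5 states and, chosen after its values were seen, for Nudt21. Of the related lists, at most 4 called genes are named. The same results were recomputed with other scalings, with DESeq2 1.42.0, with voom from limma 3.58.1, with a minimum of 10 counts, with single-gene units alone, an adjusted p of 0.05, the replicate block, season, and each library left out. Python 3.11.15, pandas 2.3.3, numpy 2.4.6 and matplotlib 3.10.9 were used for tables and plots. Of 30 member names, 29 are RefSeq symbols of the species (mIctTri1.hap1).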

Additional observations from a re-analysis of the deposited data

How the results depend on the processing

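The counts of members called higher (8) and lower (2) in the cold stayed within 1.5 times under each alternative except season as a covariate with LT alone as the cold state, chosen after the data were seen, which called 1 and 0. The 7 members called among the 5 states became 3 with the replicate block, 11 at an adjusted p of 0.05, and 3 to 6 with a library left out (4 without SA replicate 1 or ET replicate 2, 3 without any 1 of the IBA libraries, ET replicate 3 or either LT library). They were 8 with uniquely mapped reads and 10 with DESeq2, which called 2417 of all single-gene units. From IBA to Ent, DESeq2 called 2 and an adjusted p of 0.05 called 4. From Ent to ET these were 1 and 4. From IBA to LT, where 1 was called, upper-quartile factors, limma-voom, the replicate block and season each called 0, single-gene units alone 3, uniquely mapped reads 5, DESeq2 8 and an adjusted p of 0.05 called 11, and leaving out a library gave 0 to 3 (3 without SA replicate 2, 2 without SA replicate 3 or ET replicate 2). The median change of the members, 0.37, was 0.59 with uniquely mapped reads, 0.44 with season, and 0.29 to 0.44 with a library left out. The cause of these shifts was not tested. The replicate numbers showed no clear pairing of the animals. Deviations from state means correlated at -0.27 to 0.26 in same-numbered libraries, over 0.1 in 6 of 26 pairs. In differently numbered libraries they correlated at -0.31 to 0.38, over 0.1 in 13 of 52 pairs. Deviations cancel within a state, so these correlations are not independent of each other. In the cold-minus-warm comparison the replicate block took 1 call, Papolg (adjusted p = 0.00112). Season could not be fitted for the 5 states together or for steps that involve ET. With 2 LT libraries, and counts under 100 in some libraries for Nudt21 and Ints2, small changes of these are not resolved.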
